A study of Mus musculus with 30 samples.

Results

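The embryos described here are the 3 *Dis3* null and the 3 wild-type embryos collected at embryonic day 2.75 (E2.75), chosen by their labelled stage and genotype, 6 of the 30 samples of the series. They were 6 of 23 embryos sequenced singly, all bred from *Dis3* het females, hormonally stimulated, and het males. The null allele is a deletion of internal exons of *Dis3* made with CRISPR/Cas9 and repaired by non-homologous end-joining, and null embryos carry it on both chromosomes from fertilization, in every cell. Each mother still had a working copy of *Dis3*, so null embryos began with maternal *Dis3* product. Embryos were lysed one by one, ERCC spike-ins were added as synthetic RNA standards, polyadenylated RNA was captured on oligo-dT beads and the remaining genomic DNA gave the genotype. The 5 het embryos of E2.75, which carry 1 null allele, entered the model to help estimate the spread, and 4 null and 6 wild-type embryos of E2.5 served as a second set of animals. Strain and litter are not among the labels, so p-values measure the spread between these embryos only.

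DIS3 is the ribonuclease of the nuclear RNA exosome, a ring of core proteins that feeds RNA into it from the 3′ end. The nuclear exosome is known for trimming precursors of small nucleolar RNAs (snoRNAs) and for destroying short-lived transcripts, among them the RNAs that start upstream of coding genes and run away from them on the opposite strand. EXOSC10 is another nuclease of the nuclear complex, and DIS3L takes the place of DIS3 in the cytoplasm. Around E2.75 the mouse embryo compacts and its cells begin to acquire the inner or outer position that precedes the first lineage choice. The question of the comparison is which transcripts change in the embryo when zygotic *Dis3* is missing.

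Total counts on genes were 1914128, 1690192 and 7051002 in null embryos 1 to 3 and 3283708, 8030848 and 8644043 in wild-type embryos 1 to 3, a difference within what exact permutation of the embryos allows (two-sided, 20 assignments, p = 0.2, where 0.1 is the smallest p possible). Reads that did not lie wholly inside annotated exons are called reads outside exons below. They were 43.9%, 42.9% and 41.1% of the reads in null embryos and 33.4%, 28.8% and 23.5% in wild-type embryos, with no overlap (mean difference 14.1 percentage points, exact permutation p = 0.1). The 1740 olfactory and vomeronasal receptor genes, which early embryos are not known to use, summed to 376, 404 and 256 CPM in null and 235, 124 and 66.1 CPM in wild-type embryos, again without overlap (exact permutation p = 0.1). After thinning to 1690192 counts a library, 2413 ± 93.9 long non-coding genes were detected in null and 1857 ± 234 in wild-type embryos (SD, n = 3 each, no overlap, exact permutation p = 0.1). The numbers of protein-coding genes detected, 11647 ± 429 and 11575 ± 253 (SD, n = 3 each), overlapped (exact permutation p = 0.8). The part of the reads outside exons and of depth in the differences below was not tested. In whole embryos, fewer cells of a kind and less RNA per cell cannot be told apart.

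*Pou5f1*, the core factor of pluripotent cells, lay between 797 and 1453 CPM in the 6 libraries (CPM of a gene is its count scaled to a common library total, here with TMM normalization, which compares a gene between embryos but not genes with each other). Whether null and wild-type embryos were at the same point of development was not tested. Markers of maternal cells stayed low. The 16 cumulus markers summed to 6.81 to 11.7 CPM in wild-type and 4.40 to 8.88 CPM in null embryos, with *Inha*, *Inhba*, *Has2*, *Ptgs2*, *Ptx3*, *Cyp11a1* and *Col1a2* at 0 in all 6. The 7 oviduct markers summed to 22.9 to 84.5 CPM in wild-type and 61.6 to 106 CPM in null embryos, nearly all of it *Epcam*, which embryos also express, with *Foxj1*, *Wt1* and *Dynlrb2* at 0. Of the 10 blood markers *Hba-a2*, *Hbb-bs*, *Hbb-bt*, *S100a9* and *Lyz2* were at 0, and the list summed to 4.72 to 7.49 CPM in wild-type and 3.30 to 25.9 CPM in null embryos.

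**Figure D1:**
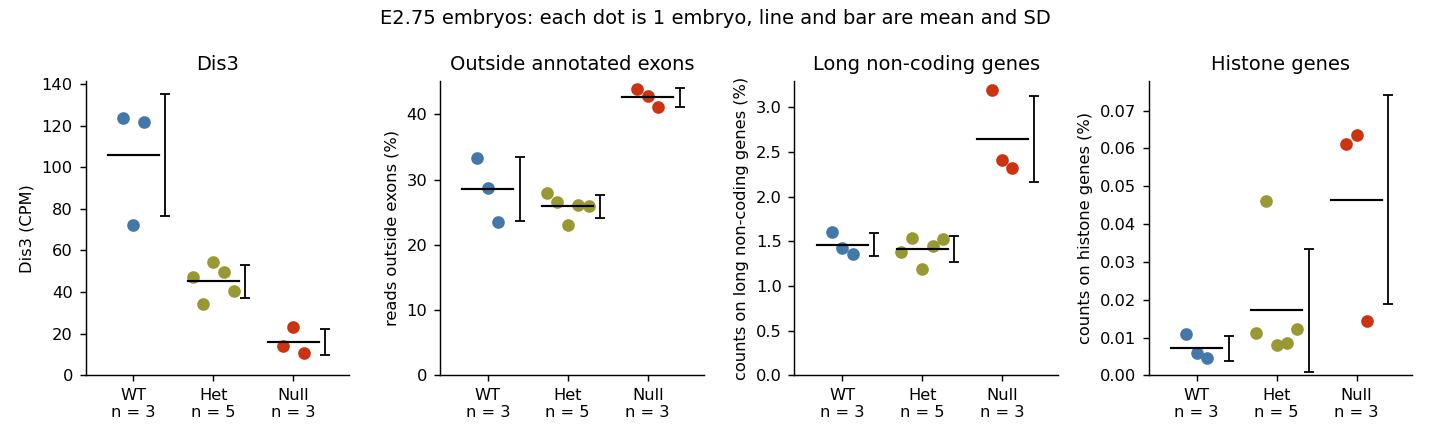
Dis3 level (CPM), reads outside exons (percent), counts on long non-coding genes (percent) and counts on replication-dependent histone genes (percent) in the E2.75 embryos. Each dot is 1 embryo of the 3 wild-type, 5 het and 3 null embryos, and line and bar are mean and SD. The 3 null embryos sit below the wild-type embryos for Dis3 and above them in the other panels, and 1 het embryo at 0.0462% stands among the null embryos for histones.

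*Dis3* itself was lower in every null embryo. This gene (ENSMUSG00000033166, 21 exons) lies on the minus strand of chromosome 14 from 99075206 to 99099770 in GRCm38. Null embryos 1 to 3 had 14.3, 23.2 and 10.8 CPM, and wild-type embryos 1 to 3 had 124, 72.2 and 122 CPM. The 5 het embryos lay between the other genotypes, from 34.1 to 54.4 CPM (median 47.2). The log2 fold change, null minus wild-type, was -2.73 ± 0.405 (SE), and the adjusted p was 0.00517 (quasi-likelihood test of edgeR after Benjamini-Hochberg correction over all genes tested, as for every adjusted p below). Exons outside the deletion are counted too, and the counts carry no strand, so the level that remained in null embryos is of uncertain origin. Reads wholly inside exons that *Dis3* shares with *Pibf1* on the other strand were counted for neither gene.

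Null embryos differed from wild-type embryos in many genes, in both directions. Of 14442 genes tested, 656 (4.54%) were called, which means a log2 fold change beyond 1 in size together with an adjusted p below 0.1, and of these 316 (2.19%) were higher and 340 (2.35%) lower in null embryos. In 1704 genes (11.8%) every null embryo was above every wild-type embryo, and in 1630 (11.3%) every null embryo was below. With libraries scaled to the ERCC spike-ins instead of TMM, which moved the median gene from -0.01 to -0.40 on the log2 scale, 181 genes were called higher and 746 lower, so that 19.5% rather than 48.2% of the calls were higher. Leaving out 1 library gave between 101 calls higher and 121 lower (without wild-type embryo 3) and 415 and 412 (without het embryo 3). With null embryo 3, the deepest, as the only null embryo, 33 genes were called higher and 115 lower.

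The genes that rose were to a large part not protein-coding. Of 1837 long non-coding genes tested, out of 13125 annotated, 123 rose and 12 fell, and their median log2 fold change was 1.03, beside -0.01 over all genes tested. Of 11836 protein-coding genes, 175 rose and 325 fell (median -0.09). These became 77 and 722 with ERCC scaling and 53 and 117 without wild-type embryo 3. Long non-coding genes took up 3.19%, 2.41% and 2.32% of the counts in null embryos and 1.6%, 1.42% and 1.36% in wild-type embryos, without overlap (exact permutation p = 0.1). A gene had to be detected in enough embryos to be tested, and 29 of the 123 had no count in any wild-type embryo and passed the filter through the other genotypes, so these medians describe the genes that passed only. The 123 rising genes became 47, 65 and 55 without null embryo 1, 2 or 3 and 75, 55 and 45 without wild-type embryo 1, 2 or 3. With the deepest null embryo alone the median of the class was 0.27. There 2971 long non-coding genes passed the filter instead of 1837, so this median and 1.03 do not describe the same genes.

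**Figure D2:**
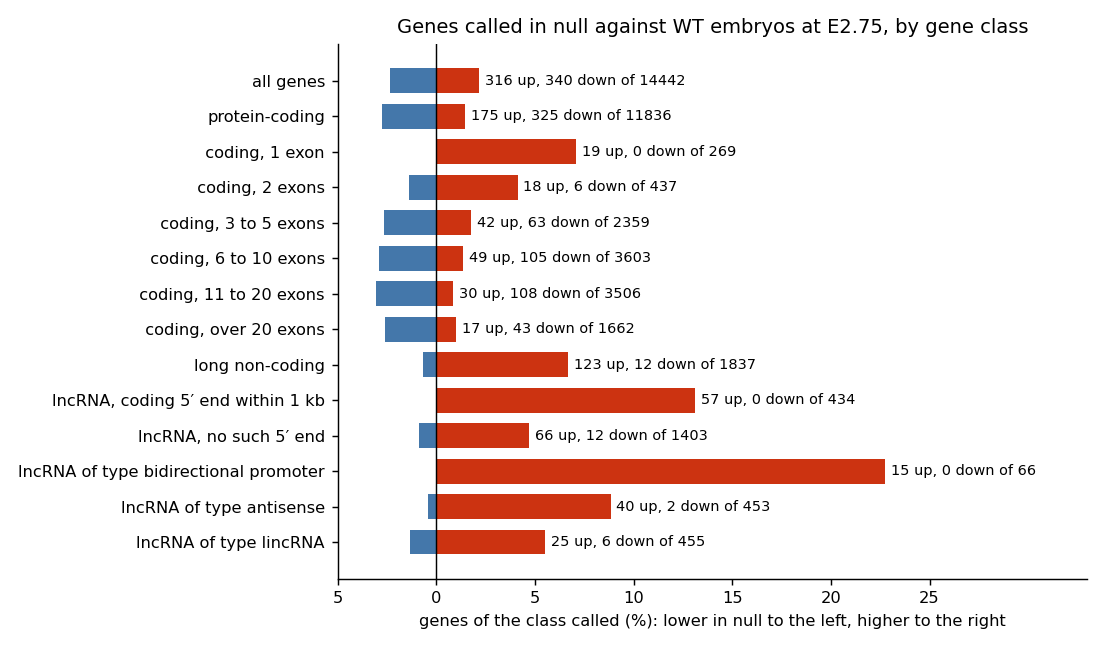
Percent of the tested genes of each class that were called higher (red, right) or lower (blue, left) in null than in wild-type embryos at E2.75, with the numbers beside each bar. The bars to the right are longest for long non-coding genes of the bidirectional promoter type (15 of 66) and shortest for coding genes of many exons (30 of 3506 with 11 to 20 exons).

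Within the non-coding genes, those that start beside a coding gene moved most often. The annotation gives 434 tested long non-coding genes whose 5′ end lies within 1 kb of the 5′ end of a protein-coding gene on the other strand. These are called divergent genes below, although the rule does not ask that the paired genes run apart. Some start inside the coding gene and overlap it, as *1010001N08Rik* does with *Gata6*. Of these, 57 rose and 0 fell (median 2.24), where 66 of the other 1403 rose and 12 fell (median 0.75). The smaller class that the annotation itself names bidirectional promoter lncRNA had 15 of 66 members higher and 0 lower (median 2.38), and antisense RNAs had 40 of 453 higher and 2 lower (median 1.31). Intergenic lincRNAs had 25 of 455 higher and 6 lower (median 1.08). No divergent gene was called lower under any of the alternatives tried. The 57 rising genes became 22, 31 and 28 without null embryo 1, 2 or 3 and 34, 26 and 19 without wild-type embryo 1, 2 or 3, and 5 with the deepest null embryo alone, while the median of the class stayed between 1.80 and 2.74.

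The start regions of 3 such genes show how close the paired starts are. The RefSeq promoter table, on GRCm38.p6, holds windows of 250 bases before to 50 bases after the start for 17 of the 57 genes. The 3 shown here, chosen after their values were seen, overlap no exon on the other strand, so that counting without regard to strand does not mix them with their neighbour. *1700007L15Rik* (chr16:33380687-33380986, minus strand) starts 109 bases from *Zfp148*, a zinc finger factor. *Gm43868* (chr6:113046122-113046421, minus strand) starts 77 bases from *Thumpd3*, a tRNA methyltransferase. *4632427E13Rik* (chr7:92741410-92741709, minus strand) starts 135 bases from *Rab30*, a small GTPase of the Golgi. Each window is written along the strand of the non-coding gene, and capitals run from the annotated 5′ end of the coding gene to that of the non-coding gene.
1700007L15Rik: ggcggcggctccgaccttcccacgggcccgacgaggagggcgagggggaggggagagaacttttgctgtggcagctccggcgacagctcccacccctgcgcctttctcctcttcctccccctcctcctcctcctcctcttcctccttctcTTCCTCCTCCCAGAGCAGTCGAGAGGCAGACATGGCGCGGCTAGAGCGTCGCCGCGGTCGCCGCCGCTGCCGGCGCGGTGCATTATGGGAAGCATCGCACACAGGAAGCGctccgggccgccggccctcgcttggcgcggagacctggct
Gm43868: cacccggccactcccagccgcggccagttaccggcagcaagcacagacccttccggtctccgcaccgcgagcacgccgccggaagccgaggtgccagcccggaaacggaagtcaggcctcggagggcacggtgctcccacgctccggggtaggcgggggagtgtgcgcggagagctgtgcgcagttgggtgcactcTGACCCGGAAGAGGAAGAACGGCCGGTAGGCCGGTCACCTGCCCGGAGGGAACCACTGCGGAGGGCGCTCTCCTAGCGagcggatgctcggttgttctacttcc
4632427E13Rik: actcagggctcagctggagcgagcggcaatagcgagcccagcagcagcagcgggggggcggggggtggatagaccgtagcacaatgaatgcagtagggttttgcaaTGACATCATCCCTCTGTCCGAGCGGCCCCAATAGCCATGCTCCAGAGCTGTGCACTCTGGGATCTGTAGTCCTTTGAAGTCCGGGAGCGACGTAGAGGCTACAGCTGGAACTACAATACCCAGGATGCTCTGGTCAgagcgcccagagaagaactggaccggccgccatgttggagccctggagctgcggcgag
The windows are 70.0%, 69.7% and 60.7% G and C. In the 1000 bases downstream of the start of the non-coding gene, the polyadenylation signal AATAAA was found on the transcribed strand in 26.3% of the 57 rising divergent genes and in 31.0% of the 377 others. Downstream of the coding partners of the rising genes it was in 15.8%. The 5′ splice site letters GTAAGT were found in 12.3%, 19.6% and 14%, respectively. Both are counts of letters, not of used sites.

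*1700007L15Rik* lay at 333, 127 and 158 CPM in null and 17.1, 5.87 and 15.2 CPM in wild-type embryos. Every null embryo was thus far above every wild-type embryo (log2 fold change 4.02 ± 0.533 SE, adjusted p = 0.00324). Its neighbour *Zfp148* was at 147, 111 and 101 CPM in null and 115, 118 and 154 CPM in wild-type embryos, which overlap (log2 fold change -0.11 ± 0.272 SE, adjusted p = 0.878). For *Gm43868* the values were 91.3, 68.0 and 87.9 CPM in null embryos and 1.18, 1.25 and 0 CPM in wild-type embryos. Het embryos, with at most 1.01 CPM, resembled the wild-type embryos in this gene (null minus wild-type 6.72, adjusted p = 0.0200). *Thumpd3* had 84.2, 87.3 and 47.4 CPM in null and 57.6, 28.6 and 55.7 CPM in wild-type embryos, an overlap (0.62 ± 0.402, adjusted p = 0.457).

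*4632427E13Rik* was already well detected in wild-type embryos, at 83.9, 92.9 and 77.2 CPM, and reached 242, 227 and 207 CPM in null embryos. The change of 1.41 ± 0.359 on the log2 scale had an adjusted p of 0.0578. Its partner *Rab30* was near the detection limit, with 0, 0 and 0.740 CPM in null and 5.02, 2.37 and 16.9 CPM in wild-type embryos, and was not called (adjusted p = 0.204). *Gm40332*, beside the splicing regulator *Sfswap*, had 31.9, 16 and 17.3 CPM in null embryos and no count in wild-type embryos, which is at least 131-fold higher if 3 counts over the wild-type group are allowed. By the same bound *Gm49586*, beside the membrane protease *Adam17*, was at least 248-fold higher, with 35.8, 20.5 and 41.9 CPM in null embryos. *Sfswap* and *Adam17* were not called (adjusted p = 0.957 and 0.279).

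**Figure D3:**
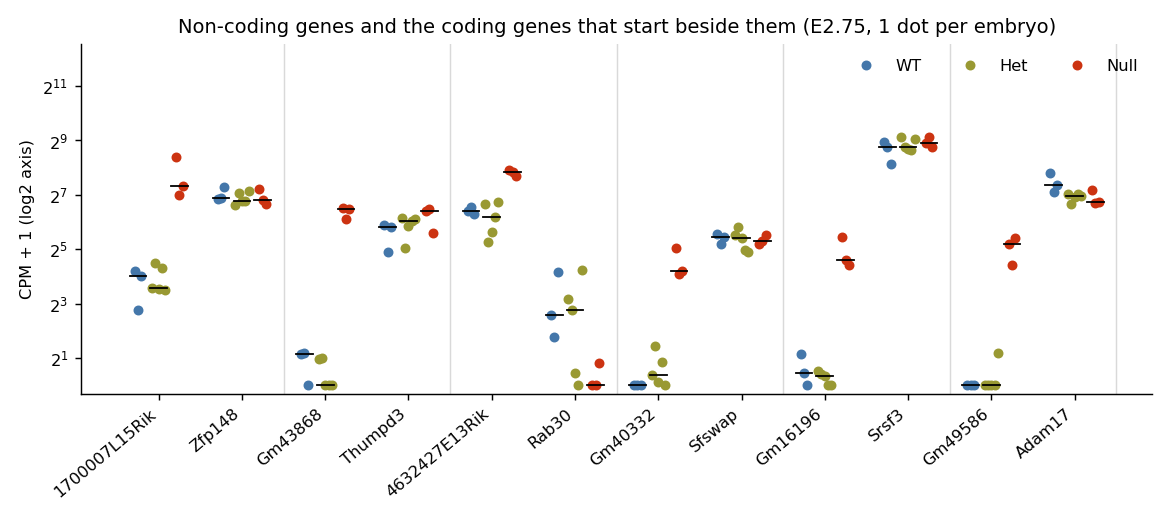
Levels (CPM + 1, log2 axis) of 6 non-coding genes called higher in null embryos, each followed by the coding gene that starts beside it. Dots are single E2.75 embryos (3 wild-type, 5 het, 3 null) and lines are medians. The null embryos stand above the others in each non-coding gene, as in 1700007L15Rik (127 to 333 CPM against 5.87 to 17.1 CPM in wild-type embryos), while none of the 6 coding genes was called.

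Most of the coding partners were not called. Of the 56 protein-coding partners tested, 3 rose (5.36%) and 2 fell (3.57%), beside 1.48% and 2.75% of all coding genes, and their median log2 fold change was -0.07. *Ndufaf3*, an assembly factor of respiratory complex I, and *Gata6*, the primitive endoderm factor, were among those that rose. *Espl1*, the separase that cuts cohesin, and *Insig1*, a brake on sterol synthesis, were those that fell. *Espl1* was at 129, 97.8 and 99.0 CPM in null and 250, 158 and 270 CPM in wild-type embryos (log2 fold change -1.06 ± 0.286 SE, adjusted p = 0.0703). Exons overlap a gene on the other strand in 34 of the 57 non-coding genes, and reads in such stretches cannot be assigned to either. *AA474408*, for example, with 242, 124 and 138 CPM in null and 4.13, 3 and 11.7 CPM in wild-type embryos, overlaps its partner *Zfp143* (4.72 ± 0.674, adjusted p = 0.00517). *1010001N08Rik*, at 145, 73.0 and 77.0 CPM against 2.66, 6.37 and 7.39 CPM (4.13 ± 0.521, adjusted p = 0.00243), overlaps *Gata6* in the same way.

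Host genes of snoRNAs, which carry these guide RNAs in their introns, rose in part. Of 18 host genes tested, 3 rose, beside 2.19% of all genes and 6.70% of long non-coding genes, and 0 fell. The median was 0.64, and it was 0.18 with ERCC scaling and 0.42 without null embryo 1. *Snhg3* had 130, 108 and 202 CPM in null and 16.2, 10.7 and 10.0 CPM in wild-type embryos (log2 fold change 3.58 ± 0.397 SE, adjusted p = 0.00218). No null embryo came near the wild-type range, but the gene overlaps *Rcc1* and *Snora73a* on its own strand. *Snhg20* was at 102, 80.2 and 94.9 CPM in null and 18.6, 15.1 and 17.6 CPM in wild-type embryos (2.44 ± 0.435, adjusted p = 0.0130). *Snhg9*, which overlaps the ribosomal protein gene *Rps2* on the other strand, was at 177, 18.8 and 27.5 CPM against 2.36, 1.12 and 0.462 CPM, so that null embryo 1 alone held most of the group's level (adjusted p = 0.0652). Het embryo 2, at 50.9 CPM, was above null embryos 2 and 3 in *Snhg9*, while the other het embryos had 1.16 to 4.09 CPM. The widely expressed hosts *Gas5*, at 976, 383 and 650 CPM in null and 348, 556 and 447 CPM in wild-type embryos, and *Snhg1* overlapped between genotypes (adjusted p = 0.335 and 0.845). Leaving out 1 null or wild-type library gave 2 to 4 rising hosts, and 2 rose with the deepest null embryo alone.

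Short structured RNAs were few among the genes tested, and some were called higher, although the libraries were made from polyadenylated RNA. Of 26 snoRNAs tested 2 rose and 0 fell, as did 2 of 7 snRNAs, 1 of 4 scaRNAs and 1 of 6 genes of the class that holds Y RNAs. Beside these small counts, 2.19% of all genes and 5.41% of genes other than protein-coding rose. These classes were not counted again with 1 library left out. *Snord17*, a guide for ribosomal RNA methylation named here after its values were seen, lay at 71.5, 37.6 and 49.0 CPM in null and 2.07, 4.5 and 5.08 CPM in wild-type embryos (3.74 ± 0.646, adjusted p = 0.0129). *Scarna2*, which belongs to the Cajal body, and *Rny1*, a Y RNA, were also called higher. Among lincRNAs, *Neat1*, the scaffold of nuclear paraspeckles and likewise named after its values were seen, had 353, 207 and 290 CPM in null and 13.6, 28.0 and 48.7 CPM in wild-type embryos. The groups were far apart (3.22 ± 0.557, adjusted p = 0.0129). *Malat1*, the nuclear speckle RNA encoded near it, was at 1404, 685 and 511 CPM in null and 246, 815 and 467 CPM in wild-type embryos and was not called (adjusted p = 0.383).

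Among coding genes, those without introns stood out by count. Of 269 tested protein-coding genes with 1 exon, 19 rose (7.06%) and 0 fell, while of 3506 with 11 to 20 exons 30 rose and 108 fell (3.08%). The median coding gene that rose had 6 exons, and the median coding gene that fell had 9, as had all coding genes tested. *Pcbp1*, an intronless gene for a poly(C)-binding protein, lay at 988, 841 and 879 CPM in null and 238, 264 and 257 CPM in wild-type embryos, with little spread within either group (log2 fold change 1.84 ± 0.286 SE, adjusted p = 0.00767). *Mocs3*, needed for the molybdenum cofactor and for tRNA thiolation, was at 133, 90.7 and 109 CPM against 17.1, 21.9 and 17.4 CPM (2.56 ± 0.375, adjusted p = 0.00517). *2310039H08Rik*, whose role is not described here, reached 59.4, 87.3 and 62.2 CPM from 2.36, 0.874 and 0.578 CPM (5.87 ± 0.848, adjusted p = 0.00517). *Sfn*, *Purb*, *Sft2d3*, *B3galt6* and *Foxe1* were also among the 19. The 19 rising genes became 8, 11 and 11 without null embryo 1, 2 or 3 and 10, 10 and 4 without wild-type embryo 1, 2 or 3, and 4 with the deepest null embryo alone, with 0 falling each time. Reads from unspliced RNA or from genomic DNA count fully in a gene without introns, and the reads outside exons given above were higher in the same embryos. Their part in this result was not tested.

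Replication-dependent histone genes, which have 1 exon and whose messages ordinarily end in a stem-loop instead of a poly(A) tail, made up 0.0612%, 0.0637% and 0.0145% of the counts in null embryos and 0.0109%, 0.0058% and 0.0047% in wild-type embryos. The groups did not overlap (exact permutation p = 0.1), yet null embryo 3, the deepest, was much closer to the wild-type range than the shallow null embryos 1 and 2, and the shallow het embryo 2 had 0.0462%. Of 67 such genes 34 passed the filter on low counts. Of these 4 rose, beside 2.19% of all genes, and 0 fell, with a median log2 fold change of 2.27. *Hist1h1c*, a linker histone, was at 63.3, 7.19 and 16 CPM in null and 1.77, 0.999 and 1.85 CPM in wild-type embryos (4.21 ± 1.21, adjusted p = 0.0844). *Hist2h4* was at least 27.0-fold higher, against 0 counts in wild-type embryos. *Hist1h2bg* and *Hist1h2bb* were the others. With the deepest null embryo alone the median was 0.26, over 39 genes that passed the filter there instead of 34. The count of rising genes was 0, 1 and 2 without null embryo 1, 2 or 3 and 0 without any one of the wild-type embryos.

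Other coding genes of smallest p among those that rose held several with little or no wild-type expression. *A930004D18Rik* had 141, 75.7 and 101 CPM in null and 2.36, 5.5 and 1.73 CPM in wild-type embryos (5.03 ± 0.653, adjusted p = 0.00296). *4930519G04Rik* had 91.9, 74.1 and 215 CPM and 6.79, 3.5 and 2.31 CPM (4.96 ± 0.615, adjusted p = 0.00243). *Magi2*, a scaffold of cell junctions, was at 95.2, 41.5 and 34.3 CPM in null embryos and at no more than 1.62 CPM in wild-type embryos (5.81 ± 0.966, adjusted p = 0.0114). All 3 genes were thus near absence in wild-type embryos. *Ell*, an elongation factor of RNA polymerase II, was at 131, 78.5 and 97.3 CPM in null and 21.6, 10.1 and 17 CPM in wild-type embryos (2.66 ± 0.458, adjusted p = 0.0129). *Pnpla6*, a lysophospholipase, was at 206, 478 and 295 CPM against 38.4, 68.8 and 82.8 CPM (adjusted p = 0.0164), and *Agmat*, which cleaves agmatine, at 85.3, 53.1 and 65.9 CPM against 7.38, 11.1 and 18.7 CPM (adjusted p = 0.0165). Of *Skida1*, null embryos had 20.4, 53.1 and 58.5 CPM and wild-type embryos 5.32, 1.5 and 1.27 CPM (adjusted p = 0.0158). *Clec11a*, a secreted lectin-like growth factor, was at least 119-fold higher by the bound of 3 counts, but unevenly so, with 61.1, 1.66 and 10.5 CPM in null embryos.

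Sterol synthesis was the list with the most members that fell. Cells make cholesterol from acetyl-CoA through mevalonate, squalene and lanosterol, the factor SREBP2 switches the enzymes on and INSIG1 restrains it. Of 23 list members tested, 9 fell and 0 rose, beside 2.35% of all genes that fell, 22 of 23 had a negative log2 fold change and the median was -1.51 (-0.85 without wild-type embryo 2). *Srebf2*, the gene for SREBP2, lay at 2.2, 8.29 and 3.55 CPM in null and 17.1, 78.8 and 38.5 CPM in wild-type embryos (log2 fold change -3.30 ± 0.671 SE, adjusted p = 0.0244). *Sqle*, the squalene epoxidase, was at 108, 54.7 and 84.7 CPM in null and 197, 348 and 199 CPM in wild-type embryos, which do not overlap (-1.58 ± 0.383, adjusted p = 0.0482). *Stard4*, a cholesterol carrier, was at 58.3, 71.9 and 75.7 CPM against 413, 193 and 98.8 CPM (adjusted p = 0.0499).

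Others that fell were *Insig1*, with 24.2, 24.3 and 33.3 CPM in null and 43.1, 191 and 60.9 CPM in wild-type embryos (adjusted p = 0.0693), and *Fdps*, *Lss* and *Pmvk*, with adjusted p from 0.0708 to 0.0905. *Pmvk*, a kinase of the mevalonate branch, is the only one of the 9 whose groups overlap. *Fdft1* and *Hmgcs1*, enzymes of squalene and mevalonate synthesis, were not called (adjusted p = 0.979 and 0.760). Wild-type embryo 2 was the highest of the wild-type embryos in most of these genes. The summed level of the list was 1032 to 1266 CPM in null, 1497 to 3629 CPM in wild-type and 1634 to 3213 CPM in het embryos, and null against het embryos gave 7 members lower and 0 higher. The 9 calls became 4, 3 and 2 without null embryo 1, 2 or 3 and 6, 3 and 6 without wild-type embryo 1, 2 or 3. With the deepest null embryo alone 0 were called. *Fasn*, the fatty acid synthase, which is not on the list, fell as well, from 252, 438 and 242 CPM to 60.0, 80.2 and 64.7 CPM (-2.19 ± 0.314, adjusted p = 0.00517).

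The promoter windows of 4 of the 9 genes are in the RefSeq table (GRCm38.p6, 250 bases before to 50 after the start, all on the plus strand), and they are shown because the members fell together. They are *Srebf2* (chr15:82147019-82147318), *Insig1* (chr5:28071162-28071461), *Lss* (chr10:76531355-76531654) and *Pmvk* (chr3:89454291-89454590). Capitals mark CCAAT, read on either strand, so that a match on the minus strand appears as ATTGG.
Srebf2: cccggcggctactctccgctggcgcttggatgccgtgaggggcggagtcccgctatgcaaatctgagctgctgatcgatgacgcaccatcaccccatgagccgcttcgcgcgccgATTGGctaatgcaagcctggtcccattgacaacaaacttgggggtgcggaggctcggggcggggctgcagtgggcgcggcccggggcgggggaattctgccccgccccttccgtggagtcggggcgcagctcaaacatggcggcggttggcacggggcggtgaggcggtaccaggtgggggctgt
Insig1: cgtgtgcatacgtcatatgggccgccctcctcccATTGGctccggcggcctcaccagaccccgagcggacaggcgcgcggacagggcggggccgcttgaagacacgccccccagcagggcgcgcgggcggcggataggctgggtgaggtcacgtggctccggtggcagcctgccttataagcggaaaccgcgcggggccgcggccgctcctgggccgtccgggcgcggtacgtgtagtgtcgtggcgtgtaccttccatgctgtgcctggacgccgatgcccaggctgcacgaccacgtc
Lss: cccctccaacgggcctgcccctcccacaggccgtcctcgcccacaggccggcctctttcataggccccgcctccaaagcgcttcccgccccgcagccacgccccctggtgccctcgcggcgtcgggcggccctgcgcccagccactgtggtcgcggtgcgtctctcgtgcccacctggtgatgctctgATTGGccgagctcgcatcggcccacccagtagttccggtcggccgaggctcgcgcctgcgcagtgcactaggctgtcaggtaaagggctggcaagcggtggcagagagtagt
Pmvk: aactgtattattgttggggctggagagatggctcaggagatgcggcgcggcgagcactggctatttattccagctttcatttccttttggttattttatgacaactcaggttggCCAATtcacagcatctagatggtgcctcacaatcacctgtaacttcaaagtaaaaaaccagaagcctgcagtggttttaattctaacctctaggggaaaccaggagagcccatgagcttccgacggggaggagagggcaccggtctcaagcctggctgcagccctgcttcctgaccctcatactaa
CCAAT, the letters bound by NF-Y, was in all 4 of these windows and in 15 of the 16 tested list members with a window, beside 37.4% of all 32544 windows. The sterol response element, spelled TCACNCCAC and searched on both strands, was in 1 of the 16 and in none of the 4, beside 1.24% of all windows. The matches describe letters only.

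Cell cycle genes fell in part and none rose. Of 43 tested, 8 fell, beside 2.35% of all genes, 35 had a negative log2 fold change, and the median was -0.61. *Cdc25c*, the phosphatase that activates CDK1 at mitotic entry, lay at 27.0, 18.2 and 14.2 CPM in null and 97.5, 82.9 and 137 CPM in wild-type embryos (-2.43 ± 0.356, adjusted p = 0.00517). *Ccne1*, the cyclin of S phase entry, was at 111, 91.2 and 164 CPM against 395, 396 and 268 CPM (-1.53 ± 0.285, adjusted p = 0.0169). *Cdc20*, the activator of the anaphase-promoting complex, was at 540, 269 and 342 CPM against 1202, 796 and 1021 CPM (-1.39 ± 0.285, adjusted p = 0.0247). *Mki67*, *E2f1*, *Ccnb1*, *Plk1* and *Cdk6* also fell, with adjusted p from 0.0513 to 0.0954, and null and wild-type embryos did not overlap in any of the 8. *Cdk1* was not called (log2 fold change -0.09, adjusted p = 0.929), nor was *Ccnb2* (adjusted p = 0.609). The summed level of the list was 5933 to 6972 CPM in null, 8935 to 9756 CPM in wild-type and 7201 to 9058 CPM in het embryos. Null against het embryos gave 3 members lower and 0 higher (median -0.40). Without null embryo 1, 2 or 3 the count was 4, 5 and 3, without wild-type embryo 1, 2 or 3 it was 6, 5 and 3, and with the deepest null embryo alone it was 2.

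Genes of other kinds were among those of smallest p that fell. *Atp6v0d1*, a subunit of the membrane sector of the proton-pumping vacuolar ATPase, had 29.2, 18.2 and 19.7 CPM in null and 163, 229 and 171 CPM in wild-type embryos, a wide gap (-3.07 ± 0.357, adjusted p = 0.00218). Of the 16 subunits and accessory genes tested 2 fell, beside 2.35% of all genes, and 14 had a negative log2 fold change (median -0.50). The other was *Atp6ap1*, on the X chromosome, and with X and Y left out 1 of 14 was called. *Iars*, the cytosolic isoleucyl-tRNA synthetase, was at 47.3, 41.5 and 43.8 CPM in null and 180, 190 and 238 CPM in wild-type embryos (-2.2 ± 0.274, adjusted p = 0.00243). Het embryos were between them, from 87.0 to 137 CPM. In a group formed after the values were seen, it was the only called one of 20 cytosolic aminoacyl-tRNA synthetases, of which 17 had a negative log2 fold change (median -0.41). *Ddah1*, which breaks down methylated arginine, was at 45.1, 20.5 and 14.7 CPM against 175, 207 and 304 CPM (-3.12 ± 0.445, adjusted p = 0.00517). *Lgr4*, a receptor for R-spondins, was at 3.85, 11.6 and 2.52 CPM against 115, 72.1 and 73.2 CPM (-3.92 ± 0.589, adjusted p = 0.00554). *Arhgap5*, a GTPase-activating protein, *Spryd7* and *Lonrf1* were the remaining genes of smallest p, with log2 fold changes of -1.93, -2.2 and -3.69 (each adjusted p = 0.00517).

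Glycolysis had 3 of 20 members lower, beside 2.35% of all genes, and 0 higher. The median was -0.92, and it ran from -1.51 without wild-type embryo 1 to -0.38 without wild-type embryo 2. *Aldoa*, the main aldolase, was at 195, 175 and 160 CPM in null and 439, 726 and 345 CPM in wild-type embryos (-1.51 ± 0.278, adjusted p = 0.0162). The others were the phosphofructokinases *Pfkm* and *Pfkp* (adjusted p = 0.0907 and 0.0967). *Pfkp* was at 1.1, 2.76 and 0.296 CPM in null and 62.0, 6.87 and 12.2 CPM in wild-type embryos, so that wild-type embryo 1 held most of its group's level. Genes of the integrated and endoplasmic reticulum stress responses had a median of -0.66 (-0.43 without wild-type embryo 1). Of 27 tested, 3 were lower, beside 2.35% of all genes, and 0 higher. These were *Phgdh* (239, 164 and 208 CPM against 903, 663 and 638 CPM, adjusted p = 0.0130), which opens serine synthesis, *Shmt2*, which passes serine carbon to folate, and the lipoprotein receptor *Vldlr*. The stress transcription factors on the list, *Atf4* and *Ddit3* among them, were not called. The lists for glycolysis, stress and vacuolar ATPase each had 1 to 3 members called lower when 1 null or wild-type library was left out. With the deepest null embryo alone the counts were 0, 0 and 1. *Tdrkh*, a Tudor protein of the piRNA pathway, and *Car4*, a carbonic anhydrase, had no count in any null embryo and were at least 81.6-fold and 43.8-fold lower, though wild-type embryos ranged from 4.12 to 60.2 CPM and from 2.12 to 32.8 CPM.

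**Figure D4:**
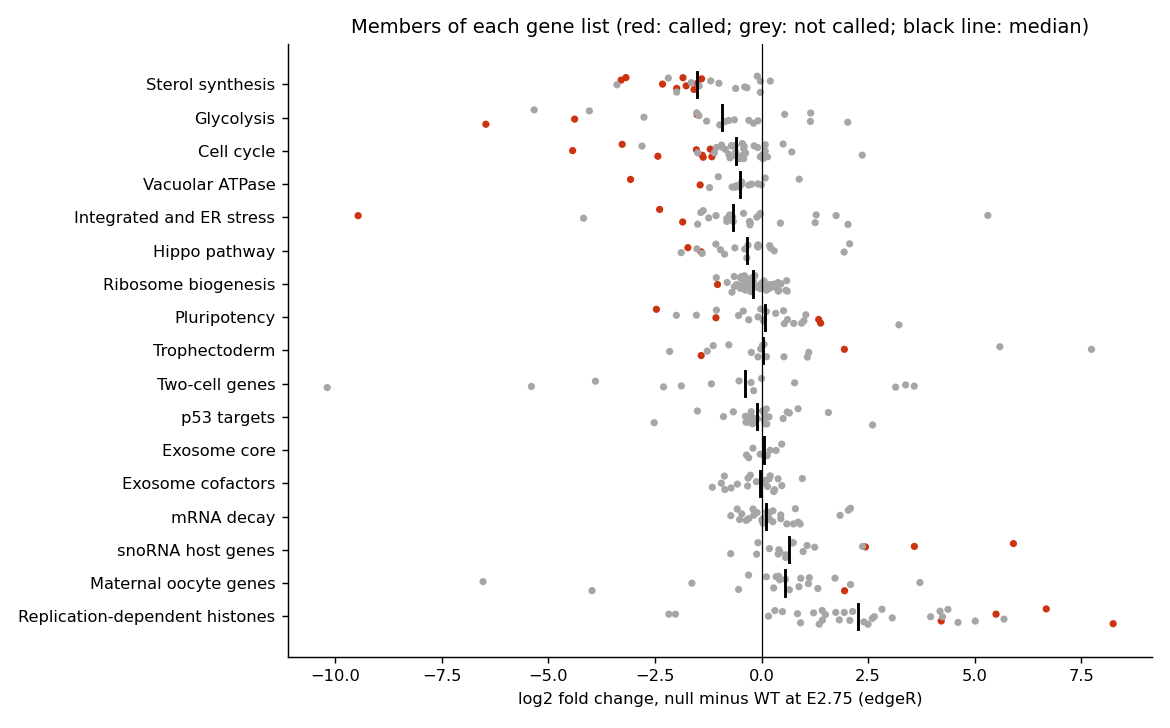
Log2 fold change, null minus wild-type at E2.75, of the tested members of each gene list (dots, red where called) with the list's median (black line). Sterol synthesis has its median at -1.51 with 9 called members, all lower, and the histone genes have theirs at 2.27 with 4 called members, all higher.

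Lineage lists moved little by their medians. Of 24 pluripotency genes tested 2 rose and 2 fell (median 0.08), beside 2.19% and 2.35% of all genes. The 2 rising genes became 0, 1 and 1 without null embryo 1, 2 or 3. They became 0 without any one of the wild-type embryos and 0 with ERCC scaling. Between 1 and 2 genes fell in each of these fits. *Klf5* was at 1593, 536 and 846 CPM in null and 270, 477 and 392 CPM in wild-type embryos (1.38 ± 0.404, adjusted p = 0.0907), and it is the only called one of 14 genes tested within 5 Mb of *Dis3*, the region that null embryos inherit from the edited chromosome. *Dppa5a* was at 3923, 1451 and 1139 CPM against 928, 812 and 834 CPM (adjusted p = 0.0990), and null embryo 1 was the highest for both genes. *Klf17*, a factor of the early cleavage stages, was at 35.8, 38.7 and 34.5 CPM in null and 275.2, 145 and 183 CPM in wild-type embryos (-2.47 ± 0.550, adjusted p = 0.0366), and *Zfp42* fell by 1.07 on the log2 scale (adjusted p = 0.0688). In het embryos *Klf17* ran from 23.9 to 153 CPM (median 50.3). *Klf5* and *Dppa5a* averaged 750 and 1405 CPM in het, 379 and 858 CPM in wild-type and 992 and 2171 CPM in null embryos. *Zfp42* averaged 283 CPM in het, 239 CPM in wild-type and 114 CPM in null embryos. Null against het embryos gave 0 list members higher and 1 lower. Differences from wild-type embryos were thus not particular to null embryos in *Klf17*, *Klf5* and *Dppa5a*. Of 17 trophectoderm genes *Krt8* rose and *Tead4* fell (median 0.02). *Tead4*, the DNA-binding partner of YAP, was at 74.3, 81.8 and 46.9 CPM in null and 155, 197 and 188 CPM in wild-type embryos (-1.42 ± 0.297, adjusted p = 0.0270). *Krt8*, a keratin of the outer cells, was at 13.2, 80.2 and 75.4 CPM in null and 8.86, 20.9 and 14 CPM in wild-type embryos, which overlap.

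*Gata6*, the factor of the primitive endoderm, was the only called one of 14 genes of that lineage, with 367, 390 and 451 CPM in null and 61.4, 176 and 159 CPM in wild-type embryos (1.6 ± 0.321, adjusted p = 0.0229). Reads wholly inside the exon stretch that *Gata6* shares with the rising *1010001N08Rik* on the other strand were counted for neither gene. Outside that stretch the counts carry no strand. Of 32 genes of cell junctions and cavity formation 3 rose, *Krt8*, *Tjp3* and *Pard6b*, and 1 fell. Of all genes 2.19% rose and 2.35% fell. Mean levels of *Krt8*, *Tjp3* and *Pard6b* were 156, 13.6 and 32.2 CPM in het embryos. They were 14.6, 0.568 and 9.01 CPM in wild-type and 56.2, 11.5 and 43.3 CPM in null embryos. Higher levels than in wild-type embryos were thus not particular to null embryos in these 3 genes. The gene that fell was *Atp1b3*, a sodium pump subunit, with 89.1, 54.7 and 97.9 CPM against 335, 200 and 230 CPM (adjusted p = 0.0201). In the Hippo pathway *Tead4* and *Amot* fell, 2 of 21 beside 2.35% of all genes (median -0.35). *Amot*, on the X chromosome, was at 17.6, 37.0 and 56.7 CPM in null and 115, 41.6 and 218 CPM in wild-type embryos, which overlap, and the sex of the embryos, given below, differed between the groups. Maternal oocyte genes had 1 of 21 higher (*Khdc3*, a part of the subcortical maternal complex, whose groups overlap) and 0 lower. *Khdc3* averaged 1658 CPM in het, 452 CPM in wild-type and 1740.5 CPM in null embryos. Of 29 listed genes of the 2-cell stage, 26 were in the annotation and 14 passed the filter. Of these 14, 0 were called in either direction by edgeR and 2 had an unadjusted p under 0.05. The same was true of 27 p53 targets (3 under 0.05) and 12 genes of innate RNA sensing (3 under 0.05).

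The other parts of the RNA decay machinery showed no called change. Of 8 exosome core genes, 20 cofactors and 30 genes of cytoplasmic mRNA decay, 0 were called by edgeR in either direction, with 0, 2 and 4 at an unadjusted p under 0.05, and the medians were 0.05, -0.05 and 0.11. *Dis3* was the only called one of 6 exosome and 5′ to 3′ nucleases. *Exosc5*, a core subunit, was at 260, 164 and 160 CPM in null and 115, 124 and 181 CPM in wild-type embryos, which overlap (adjusted p = 0.477). Of 52 ribosome biogenesis genes only *Mybbp1a* fell and 0 rose (median -0.21). In a group formed after the values were seen, 1 of 79 ribosomal protein genes rose, *Rpl15* (201, 323 and 139 CPM against 72.9, 78.7 and 88.4 CPM, adjusted p = 0.0366), while their share of the counts was 3.68%, 2.55% and 2.18% in null and 2.03%, 1.89% and 1.98% in wild-type embryos, without overlap (exact permutation p = 0.1). The share was furthest from the wild-type range in null embryo 1.

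Genes that the study names besides *Dis3* were mostly not called in this comparison. Of the 14 tested, *Dis3* included, 6 had an unadjusted p under 0.05 by edgeR, and the median log2 fold change was 0.61. In 5 of them every null embryo was above every wild-type embryo, beside 11.8% of all genes. The study itself reported null against het embryos, by DESeq2 at each stage and with the stages combined, which is a different comparison. *Pou6f1*, a POU-domain factor, was at 87.5, 26.5 and 19 CPM in null and 25.7, 35.5 and 63.0 CPM in wild-type embryos (log2 fold change 0.09 ± 0.633 SE, adjusted p = 0.965), and null embryo 1 alone was above the wild-type range. *Nanog* was at 71.0, 49.2 and 58.3 CPM in null and 25.7, 125 and 29.1 CPM in wild-type embryos (-0.02 ± 0.618, adjusted p = 0.992). *Cdx2*, the trophectoderm factor, was at 27.0, 34.3 and 15.4 CPM against 0, 32.8 and 43.1 CPM (-0.02 ± 1.01, adjusted p = 0.995). With standard errors this size, a change of 2-fold in any of these 3 genes cannot be told from none. At E2.5 the log2 fold changes of *Pou6f1*, *Nanog* and *Cdx2* were 2.01, -1.11 and -2.38, none of them called (adjusted p = 0.140, 0.471 and 0.423). There *Pou6f1* was at 19.4 to 59.5 CPM in 4 null and 3.01 to 25.9 CPM in 6 wild-type embryos, which overlap. *Pou5f1* was at 1327, 1376 and 1453 CPM in null and 797, 1017 and 915 CPM in wild-type embryos, groups that did not overlap, with an adjusted p of 0.138 (0.61 ± 0.207). *Cox6b2*, an alternative subunit of cytochrome c oxidase, rose, at 63.8, 76.8 and 131 CPM against 5.32, 17.6 and 8.20 CPM (3.12 ± 0.860, adjusted p = 0.0748). *Pigl*, of the GPI anchor pathway, was at 58.9, 68.5 and 40.1 CPM against 31.3, 13.1 and 12.5 CPM (adjusted p = 0.123). *Sox15*, *Fbp1*, *Sox2*, *Ovol2*, *Wdr45*, *Cacnb1* and *Efhd1* were not called (adjusted p from 0.123 to 0.928), and *Ninj2* did not pass the filter on low counts.

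Peaks of POU6F1, from mouse embryonic stem cells transfected with *Pou6f1-mCherry*, give a readout from other cells. A peak shared by both replicates lay within 1 kb of a start site in 80.3% of the 325 coding genes that fell (95% Wilson interval 75.6 to 84.3%), 66.3% of the 175 that rose (59.0 to 72.9%) and 72.7% of all coding genes tested (71.9 to 73.5%). For genes other than coding, the share was 63.8% of 141 that rose and 23.8% of all 2606 tested. A divergent gene shares its start region with a coding gene, so its peak and its partner's are often the same peak. Genes are not independent replicates, and the intervals cover counting error only. The coding genes that fell had a median wild-type level of 91.9 CPM, those that rose 17.6 CPM and all coding genes tested 22.8 CPM. The part of expression level in the shares was not tested. Against the mCherry control in place of IgG, 32.6% of the coding genes that fell, 19.4% of those that rose and 26.1% of all coding genes had a peak.

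The embryos of E2.5, none of them used above, show which of these differences appear in other animals. There 216 of 15904 genes (1.36%) were called higher and 73 (0.459%) lower in 4 null than in 6 wild-type embryos. Of the 138 non-coding genes that rose at E2.75 and were tested at E2.5, 132 had a positive log2 fold change there too and 60 (43.5%) were called higher, beside 5.31% of all non-coding genes tested at both stages. Their median log2 fold change at E2.5 was 3.77. Of the 171 coding genes that rose, 113 were positive at E2.5 and 21 (12.3%) were called, beside 0.488% of all coding genes (median 0.49). Of the 339 genes that fell, 258 were negative at E2.5 and 11 (3.24%) were called, beside 0.539% of all genes (median -0.49). None was called in opposite directions. Over the 13543 genes tested at both stages the correlation of the fold changes was 0.343 (Pearson) and 0.274 (Spearman), across genes that share libraries within a stage.

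**Figure D5:**
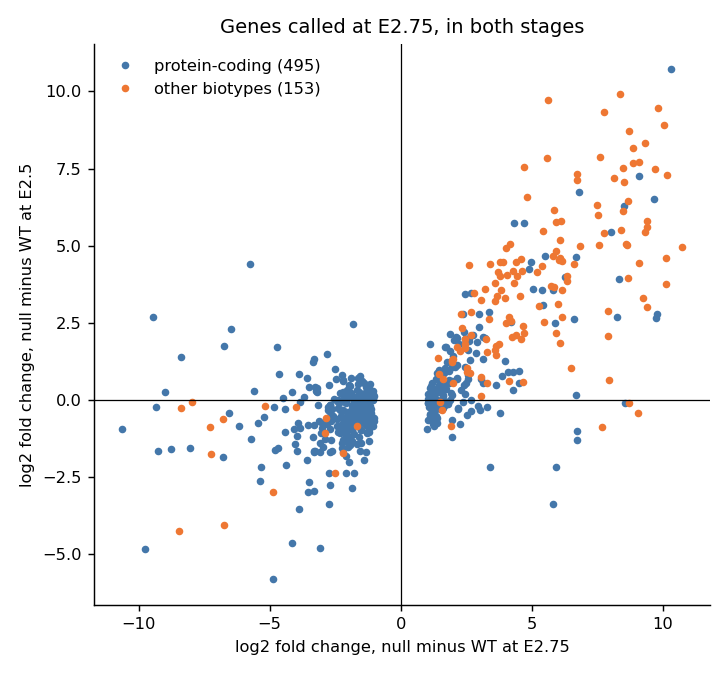
Log2 fold change, null minus wild-type, at E2.75 (horizontal) and at E2.5 (vertical) of the genes called at E2.75, with 495 protein-coding genes in blue and 153 others in orange. Of the orange genes that rose at E2.75, 132 of 138 lie above 0 at E2.5, while the genes that fell at E2.75 gather near 0 at E2.5, with a median of -0.49.

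Single genes differed in whether they were called at E2.5 as well. At E2.5 the log2 fold change of *1700007L15Rik* was 2.48 (adjusted p = 0.0133), of *Gm43868* 7.34 and of *Neat1* 3.61, all called. *Snhg3* rose by 1.62 on the log2 scale there (adjusted p = 0.0489), *Mocs3* by 1.61 and *Ell* by 3.47. Other genes that rose at E2.75 were not called there, with log2 fold changes of 0.62 for *1010001N08Rik* (adjusted p = 0.629), -0.08 for *Pnpla6*, 0.18 for *Agmat* and 0.91 for *Skida1*. *Sqle* had a log2 fold change of -0.05 at E2.5, *Srebf2* 1.33 and *Iars* 0.63, none of them called. The list medians of sterol synthesis, cell cycle and glycolysis were -0.53, -0.13 and -0.18 at E2.5, with 1, 0 and 1 members lower, the sterol gene being *Stard4*. The median of the divergent non-coding genes was 2.06, with 49 of 387 higher and 0 lower. The difference between the stages was itself tested as an interaction, and 0 of 18677 genes (0.0%) were called by edgeR, with 2046 at an unadjusted p under 0.05 and a smallest adjusted p of 0.203. DESeq2 called 224 higher and 126 lower. A gene called at one stage only is thus not shown by edgeR to differ between them.

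Het embryos at E2.75 were close to wild-type embryos by calls, but not in every gene, as *Krt8*, *Khdc3* and *Klf17* above show. With the same fit, 0 of 14442 genes (0.0%) were called between het and wild-type embryos, with 1366 at an unadjusted p under 0.05 and DESeq2 not run. Null against het embryos gave 363 genes higher and 333 lower, 200 long non-coding genes higher and 15 lower, and 96 divergent genes higher and 0 lower. These comparisons share libraries with null against wild-type and are not independent of it. By the 500 most variable genes the first principal component, with 34.3% of the variance, placed null embryos at 49.6 to 52.2 and all others at -26.2 to -14.8.

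Genes of the X chromosome need a word on the embryos' sex. Of 454 tested, 2 rose and 20 fell (4.41%, beside 2.35% of all genes), with a median log2 fold change of -0.65, which was -1.08 without null embryo 1. *Xist*, expressed from the inactive X chromosome, was at 1553, 7.19 and 6.96 CPM in null embryos 1 to 3 and at 1418, 4.87 and 1531 CPM in wild-type embryos 1 to 3. Null embryos 2 and 3 and wild-type embryo 2 thus lacked it, and these 3 had counts on Y-linked genes. The 20 calls became 25, 2 and 4 without null embryo 1, 2 or 3 and 1, 22 and 1 without wild-type embryo 1, 2 or 3, and 7 with the deepest null embryo alone. The part of sex in these calls was not tested. With chromosomes X and Y left out, 314 genes rose and 341 fell.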

How the data were processed

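RNA-seq counts of single E2.75 embryos (3 null, 5 het, 3 wild-type) were analysed, with 12 embryos of E2.5 for comparison, grouped by their labels. Reads were trimmed with cutadapt 3.4, aligned to GRCm38 with STAR 2.7.8a and counted by the authors with HTSeq 0.11.4 (intersection-strict, without strand), and they deposited each gene's raw count as a whole number. Reads lying wholly in exons shared by overlapping genes are therefore counted for neither, and the counts elsewhere carry no strand. For the peak lists the authors used Bowtie2 2.4.4 and MACS2 2.2.7.1 on each replicate, and the deposited lists give a score, the ratio of signal to control (fold enrichment), and -log10 p and q.

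The 92 ERCC spike-ins and 5 summary lines stayed out of library sizes and tests. Totals at E2.75 were 1690192 to 14013185 counts, reads carry no molecular identifiers, and limits drawn from counts cover counting error only. Genes passing edgeR's filter on low counts were fitted with edgeR 4.0.16 (R 4.3.3, TMM, quasi-likelihood), one fit for each stage with its 3 genotypes and one of all 23 embryos for the interaction. A count of 0 was taken to allow 3 counts over a group. Library measures were compared by exact permutation. Annotation was GENCODE vM21, which lacks 260 of the 55487 identifiers, and peaks were intersected with bedtools 2.31.1 at 1 kb. DESeq2 1.42.0, Python 3.11.15, NumPy 2.4.6, SciPy 1.17.1 and pandas 2.3.3 were also used.

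On simulated counts with 200 changed genes the fit called 35% of those changed 4-fold and 57.5% of those changed 16-fold, 0 in the wrong direction, and 5 and 13 unchanged genes. Libraries of one group differed by more than sampling noise (chi-square per gene 23.4 to 57.0). The comparison, gene lists and tests were chosen with earlier results of these data known. Named genes are the 10 coding genes of smallest p in each direction among called genes without overlap, the 3 largest changes, the 5 non-coding genes of smallest p that rose, up to 4 called members of each list (or its 2 highest where none was called) and the genes the study names. Genes said to be named after their values were seen, list members beyond this and the coding partners are additions. Alternatives were other scalings, filters, samples and thresholds, DESeq2, thinning, a replicate block and each library left out. Some single genes of the lists are counted but not reported here by name.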

Additional observations from a re-analysis of the deposited data

Results flagged for a closer look

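Among 39 sets of values in groups of 4 to 6 embryos, 2 held an embryo far from the others, where chance gives about 1 in 20. The first was the share of counts on replication-dependent histone genes in the het embryos of E2.75, where embryo 2 had 0.0462% and the next highest of the 5 had 0.0124% (gap over range 0.887, critical value 0.71). That embryo's library was the shallowest of the het libraries, with 3009380 counts, and its receptor genes summed to 310 CPM, within the range of the null embryos. The second was *Iars* in the wild-type embryos of E2.5, where 1 of 6 had 97.2 CPM and its nearest neighbour 44.9 CPM (gap over range 0.72, critical value 0.625). Groups of 3 were not tested in this way. In the test of the difference between the stages, 0 genes were called.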

How the results depend on the processing

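Numbers of calls depended on the processing. At E2.75 (316 higher, 340 lower) they were 181 and 746 with ERCC scaling, 1158 and 845 with DESeq2, 482 and 640 without a filter on low counts, 308 and 208 with null and wild-type embryos only, 119 and 86 with all 23 embryos in the fit, 132 and 131 at an adjusted p under 0.05, and 33 and 115 with the deepest null embryo alone. The last was chosen after seeing the data and assumes that the lone embryo varies like the others. Leaving out 1 library gave 101 to 415 higher and 121 to 412 lower. Thinning, DESeq2 size factors and leaving out chromosomes X and Y moved neither count by over 1.5 times. At E2.5 (216 and 73) the counts were 52 and 39 with ERCC scaling, 777 and 474 with DESeq2, 399 and 140 without the filter, and 35 to 159 and 17 to 58 with 1 library left out. For the difference between the stages they were 224 and 126 with DESeq2, 126 and 95 without the filter, and 0 to 3 and 0 to 2 with 1 library left out. The cause was not tested.

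Null and wild-type embryos share replicate numbers, but embryos of the same number did not deviate together (correlations 0.0528, 0.0371 and -0.0215), so the numbers do not pair them. With the replicate block the counts were 102 and 104 at E2.75, 29 and 12 at E2.5 and 1 and 1 for the difference between the stages.

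Of 95 named genes, the called ones kept their direction wherever they were tested, and 6 that were not called changed sign. *Pou6f1* (0.09) was -0.55 with ERCC scaling, -0.011 without the filter, -1.125 with the deepest null embryo alone and -0.89 to 0.51 with 1 library left out. *Nanog* (-0.02) was 0.0575 with DESeq2 size factors, 0.0564 with DESeq2, 0.33 with the replicate block, 0.0709 after thinning and -0.39 to 1.11 with 1 library left out. *Cdx2* (-0.02) was 0.0736 with DESeq2 size factors, 0.0996 with DESeq2, 0.0025 with null and wild-type embryos only, 0.0036 with all embryos, 0.11 with the block and -0.60 to 0.57 with 1 library left out. *Ovol2* was -0.41 with ERCC scaling, -0.19 with the deepest null embryo alone and -0.14 to 0.47 with 1 library left out, *Efhd1* was -0.016 with ERCC scaling, and *Cacnb1* ranged from -0.31 to 1.00 with 1 library left out.

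The shares of genes with a POU6F1 peak were 65.2% of those that rose, 77.1% of those that fell and 63.9% of all. In the same order they were 19.9%, 31.2% and 22.8% against the mCherry control and 73.7%, 79.4% and 68.2% within 5 kb. At a -log10 q of 5 or more they were 48.7%, 59.4% and 48.4%. Low depth in null embryos 1 and 2 limits genes near the detection limit.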

Other observations

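Zinc finger genes named *Zfp*, a group formed after the values were seen, had 9 of 321 members lower, a share close to the 2.35% of all genes, and 1 higher in null embryos, with a median log2 fold change of -0.37. The summed level of the cytosolic aminoacyl-tRNA synthetases was 2378 to 2708 CPM in null and 3185 to 4126 CPM in wild-type embryos. Mitochondrial genes gave 3.67% to 7.62% of the counts in null and 5.70% to 8.38% in wild-type embryos, which overlap (exact permutation p = 0.7). The housekeeping genes *Actb*, at 1939, 2383 and 3047 CPM in null and 1034, 3806 and 2144 CPM in wild-type embryos, and *Eef1a1*, at 754, 615 and 697 CPM against 415, 665 and 626 CPM, were not called (edgeR, adjusted p = 0.946 and 0.606).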
